A study of Mus musculus with 10 samples.

Results

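Molecular chaperones of the cytosol and of mitochondria were described here in cultured mouse peritoneal macrophages with and without Gsα, the stimulatory G protein subunit encoded by Gnas. The 38 genes were chosen by name as heat shock proteins, co-chaperones and chaperonin subunits, and used if they reached a CPM (the count scaled to a common library size) of at least 1 in at least 5 libraries. All 38 were found among the 53465 genes of the count table and all 38 met this limit. The ones nearest to it were Bag2, with a CPM of at least 1 in 6 libraries, and Hspb1, with 7, and no listed gene lay outside it. RNA sequencing covered 5 libraries of Mac-GsαKO mice (KO below), named for a loss of Gsα in macrophages, and 5 libraries of control mice (CTR). Mice of both groups were 6 to 8 weeks old, and the peritoneal macrophages were kept in DMEM with serum and antibiotics, with no further treatment. The labels name neither the recombinase line nor the alleles of either group. Whether the libraries of a group are separate animals is not stated, and the spread behind each p-value may be technical.

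Heat shock proteins hold unfolded or damaged proteins and help them fold. HSP70 binds exposed stretches with the help of J-domain proteins, which deliver clients, and of BAG and HSP110 proteins, which release its nucleotide. HSP90 then finishes kinases and steroid receptors together with its own co-chaperones, while the ring-shaped chaperonin CCT folds actin and tubulin. Mitochondria have their own HSP70, HSP90 and a barrel of HSP60 capped by HSP10. The factor HSF1 raises many of these genes under heat or protein stress by binding heat shock elements, repeats of the letters GAA and TTC in alternating orientation.

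The sequences shown first are the stretches before the starts of genes the results turn on: the inducible HSP70 pair Hspa1a and Hspa1b, the 2 genes that passed the test, Bag1 and Hspe1, and Hspd1, which faces Hspe1. They are from RefSeq on GRCm38.p6, a different build from the GRCm39 that the submitters' processing notes name. Capitals mark heat shock element letters on either strand. The 2-unit form is GAANNTTC or TTCNNGAA, where N is any base, and the 3-unit form has a further GAA or TTC, again after 2 bases and in turned orientation. The first 3 are the 250 bases before each start (Hspa1a at chr17:34972157-34972406, Hspa1b at chr17:34959239-34959488 and Bag1 at chr4:40948295-40948544, all on the minus strand). The last is the whole 215 bases between the facing starts of Hspd1, on the left, and Hspe1, on the right, at chr1:55087933-55088147, written on the plus strand. Another Hspd1 start, at chr1:55088243, lies past the Hspe1 start at chr1:55088148. From that start the genes overlap, and the marked letters lie after it.
Hspa1a: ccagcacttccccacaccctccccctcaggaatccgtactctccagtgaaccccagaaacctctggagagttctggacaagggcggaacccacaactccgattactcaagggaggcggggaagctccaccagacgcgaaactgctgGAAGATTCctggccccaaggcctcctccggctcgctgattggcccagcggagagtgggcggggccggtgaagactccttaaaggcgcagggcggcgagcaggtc
Hspa1b: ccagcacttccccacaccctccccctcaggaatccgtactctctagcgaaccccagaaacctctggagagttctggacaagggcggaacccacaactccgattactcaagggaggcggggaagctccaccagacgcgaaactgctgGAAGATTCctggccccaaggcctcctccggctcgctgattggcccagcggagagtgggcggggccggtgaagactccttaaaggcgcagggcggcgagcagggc
Bag1: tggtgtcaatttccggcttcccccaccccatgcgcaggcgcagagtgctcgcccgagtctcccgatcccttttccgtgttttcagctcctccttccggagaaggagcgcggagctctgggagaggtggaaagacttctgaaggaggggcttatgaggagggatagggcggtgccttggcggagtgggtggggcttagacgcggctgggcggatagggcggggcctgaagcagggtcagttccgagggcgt
Hspd1 and Hspe1: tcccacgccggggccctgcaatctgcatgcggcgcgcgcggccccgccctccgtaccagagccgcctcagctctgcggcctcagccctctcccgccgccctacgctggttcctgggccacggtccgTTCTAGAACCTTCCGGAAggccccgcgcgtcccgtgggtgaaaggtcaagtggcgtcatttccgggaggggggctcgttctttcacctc

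The promoters of Hspa1a and Hspa1b matched at 247 of 250 positions and held the same 2-unit element. The stretch shared by Hspd1 and Hspe1 held overlapping 3-unit elements, from base -89 to base -72 counted from the Hspe1 start. The Bag1 stretch held none of these letters. Promoter windows of 300 bases (250 before and 50 after the start) were at hand for 32 of the 38 genes. Of these, 16 held a 2-unit element, against 17.0% of 27025 genes with a window, and 5 (15.6%) held a 3-unit element, against 0.662%. The 5 were Hspd1, Hspe1, Dnajb6, Hsph1 and Chordc1, and every 3-unit match also contains 2-unit matches. The counts are of genes, so the letters shared by Hspd1 and Hspe1 count for both. So does the same element in Hspa1a and Hspa1b. A match is a run of letters and not a measured binding site. For the signal that Gsα feeds, the full cAMP response element TGACGTCA, which reads the same on both strands, stood in the window of 1 of the 32 genes, Trap1 (3.12%, against 2.03% of all genes).

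**Figure D1:**
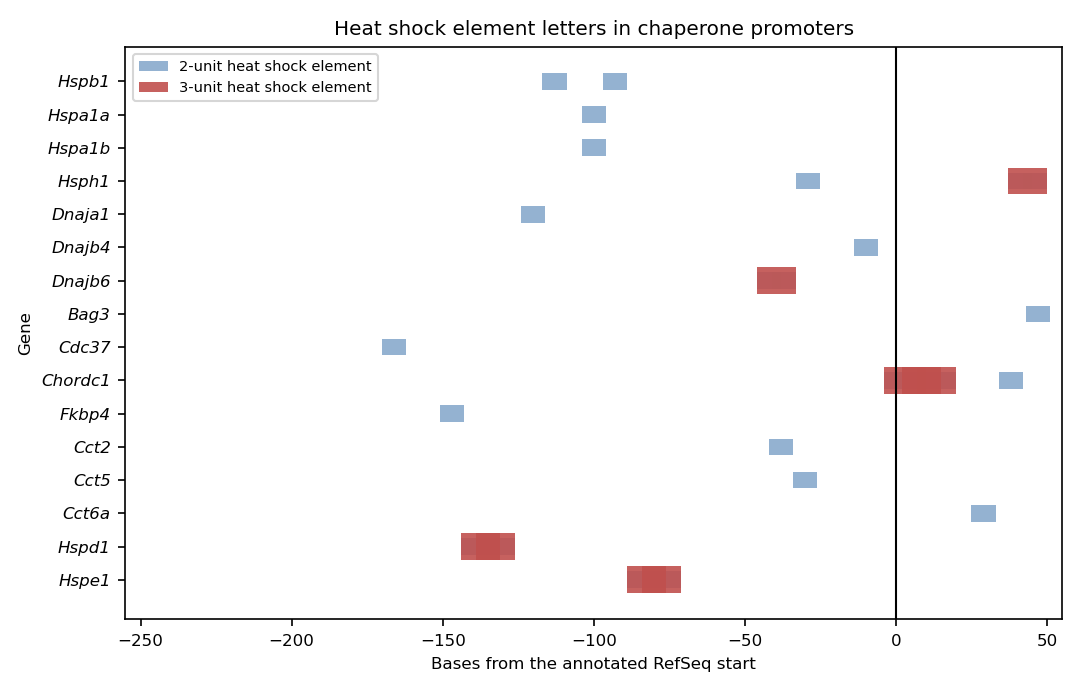
Heat shock element letters in the promoter windows of the 16 chaperone genes that held any, by distance in bases from the annotated RefSeq start (black line at 0); blue bars are 2-unit and red bars 3-unit matches, drawn on 1 window per gene. In the windows drawn, the 3-unit matches lie before the start in Hspd1, Hspe1 and Dnajb6, across it in Chordc1 and after it in Hsph1.

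Facts of the whole series set the frame for the values below. Libraries held between 16877249 and 19235777 counts in KO and between 15664243 and 18028974 counts in CTR. Gnas, the gene targeted, stood between 37.0 and 43.5 CPM in KO and between 359 and 491 CPM in CTR (log2 fold change -3.43, SE 0.11). The labels do not say which exons were targeted. The macrophage marker list (8 of 8 tested) summed to between 14620 and 16142 CPM in KO and between 30042 and 38429 CPM in CTR. Most of this sum was Lyz2, which fell, while Csf1r and Itgam rose and the other 5 did not pass the test. Adgre1, which encodes F4/80, stood between 822 and 912 CPM in KO and between 649 and 832 CPM in CTR. T and NK cell markers summed to at most 1.38 CPM in KO and 1.81 CPM in CTR, and B cell markers to between 4.29 and 8.69 CPM in KO and between 1.68 and 5.53 CPM in CTR. Mesothelial and fibroblast markers summed to between 29.4 and 40.4 CPM in KO and between 15.5 and 79.5 CPM in CTR. Ly6g, which defines neutrophils, was at 0 in all libraries, while the neutrophil list held between 9.99 and 16.1 CPM in KO and between 17.9 and 24.0 CPM in CTR, mostly from S100a8, which fell. Mast cell markers summed to between 0.637 and 13.2 CPM in KO and between 2.43 and 21.2 CPM in CTR. The part of these cells in the results below was not tested. In bulk RNA, fewer cells of a type and less RNA per cell cannot be told apart. CTR 4 and CTR 5 stood apart: their median chaperone gene lay 0.17 and 0.13 on the log2 scale above its mean over the CTR libraries, against -0.11 to -0.05 in the other CTR libraries. CTR 4 also had the fewest genes with a count (17894, against 18479 to 18652 in the other CTR libraries). Its TMM scaling factor was the lowest of all libraries (0.908, against 0.994 to 1.026 in the others), which raises every CPM of CTR 4. The part of this scaling in the high chaperone levels of CTR 4 was not tested. By its median chaperone gene against the same CTR mean, KO 5 was the highest KO library (-0.05, against -0.24 to -0.13 in the others). Values that moved by over 1.5 times without both CTR 4 and CTR 5 are given both ways. Both were picked for high levels of these same genes, so leaving them out raises KO over CTR by that choice.

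Few of the chaperone genes passed the test. At an adjusted p under 0.05 in edgeR's quasi-likelihood test over all 13203 genes tested, 2 of the 38 genes, Bag1 and Hspe1, fell in KO and 0 rose. The 2 make 5.26% of the list, against 2.11% of all genes tested that fell, 1.83% that rose and 3.94% in either direction. At an unadjusted p under 0.05, 12 of 38 were lower (31.6%), against 11.9% of all genes, and 1 was higher, against 10.0% of all genes. By DESeq2, 8 were lower and 1 higher at an adjusted p under 0.05, where 5.23% of all genes were lower and 4.53% higher. By limma voom with quality weights 7 were lower and 1 higher, where 6.76% of all genes were lower and 7.77% higher. In 5 genes (13.2%) all KO libraries lay below all CTR libraries, against 4.55% of all genes tested, and in 0 genes did they lie above, against 3.25%. The median log2 fold change of the 38 was -0.16, with 29 below 0 and 9 above, against a median of -0.0058, 50.8% below 0 and 49.2% above 0 over all genes tested.

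The median moved toward 0 without the 2 CTR libraries that stood apart. Both were picked for high levels of these same genes, so leaving them out raises KO over CTR, and the move was fixed in advance. CTR 4 or CTR 5 held the highest level of 29 of the 38 genes. With both left out the median was -0.06 with 23 genes below 0, against 0.0010 and 49.9% over all genes, and 9 of the 38 genes were lower at an unadjusted p under 0.05 (23.7%, against 12.3% of all genes). In that fit 2 of the 38 genes, Bag1 and Hspe1, fell and 1, Hspa1a, rose at an adjusted p under 0.05, near the shares over all genes of 3.63% lower and 5.13% higher.

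**Figure D2:**
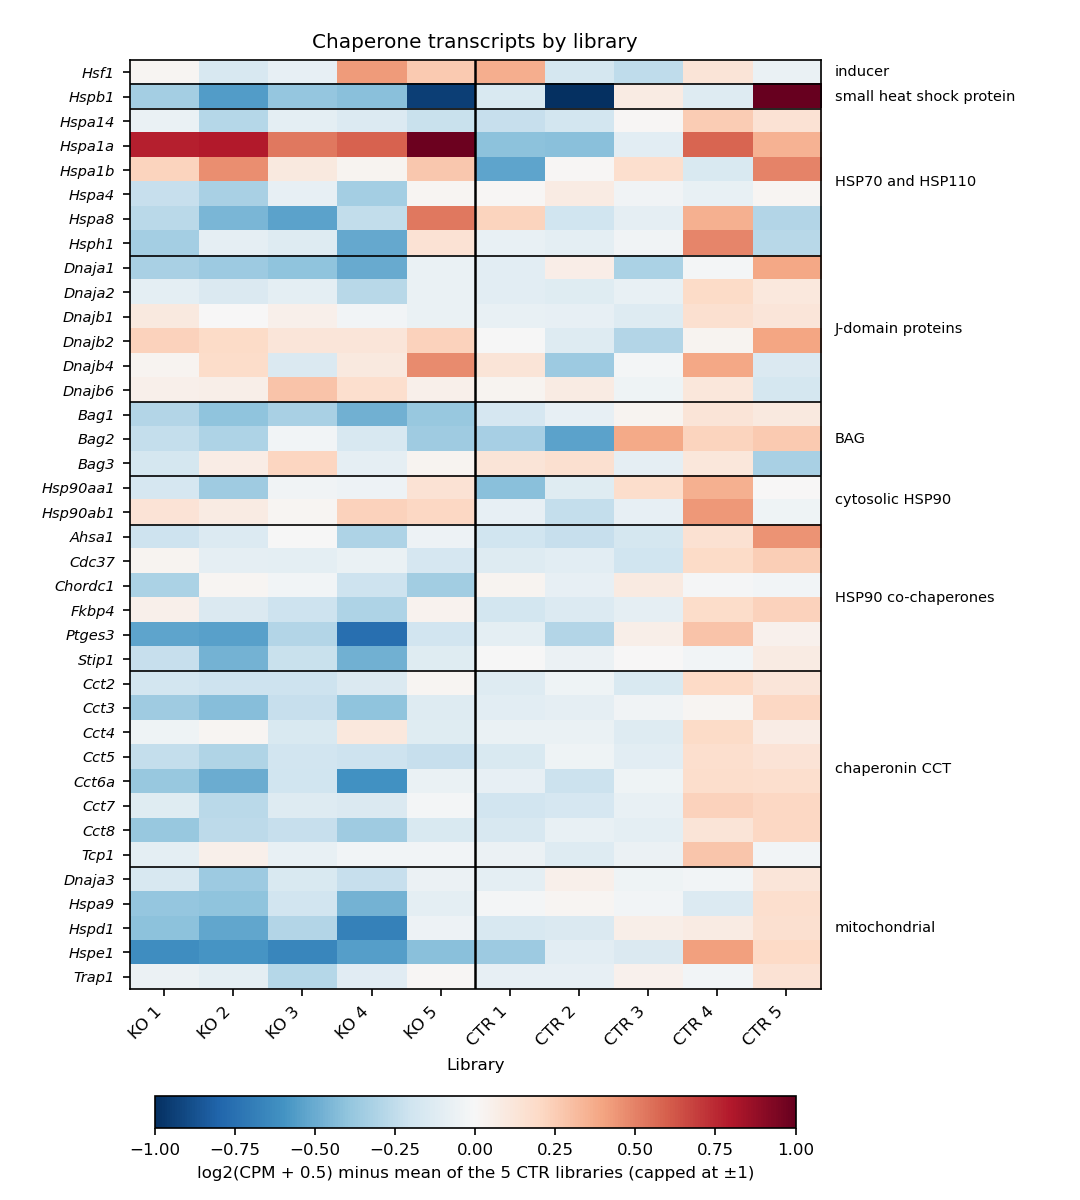
Level of each of the 38 chaperone genes (rows, by class) in each library (columns, KO left of CTR), as log2(CPM + 0.5) minus the mean of the 5 CTR libraries, with colours capped at 1 in either direction. Red in CTR 4 and CTR 5 runs down most rows, as 29 of 38 genes were highest in one of these libraries, and Bag1 and Hspe1 are blue in all KO libraries.

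The heat shock factor gene and the stress-inducible HSP70 genes were low and spread widely. Hsf1 (ENSMUSG00000022556), which encodes the factor, stood at 14.5, 12.8, 13.5, 19.5 and 17.3 CPM in KO libraries 1 to 5, against 18.6, 12.7, 11.96, 15.7 and 13.7 CPM in CTR libraries 1 to 5. The groups overlapped throughout, and the log2 fold change was 0.10 with a 95% interval from -0.24 to 0.43. Hspa1a (ENSMUSG00000091971), an HSP70 made under stress, had 5.74, 5.79, 4.72, 4.95 and 6.66 CPM in KO, against 2.23, 2.22, 2.88, 4.93 and 4.11 CPM in CTR. Only CTR 4 reached into the range of the KO libraries, and all 5 KO libraries lay above the other 4 CTR libraries. Its log2 fold change of 0.77 (SE 0.23, 95% interval 0.27 to 1.27) had an adjusted p of 0.0799, which missed the threshold. It was 1.19 (adjusted p = 0.00655) without CTR 4 and CTR 5, and without CTR 4 alone it was 0.96 (adjusted p = 0.0235). CTR 4 and CTR 5 had the highest Hspa1a levels in CTR, so leaving them out had to raise this value. These fits are therefore no independent support for a rise.

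Hspa1b (ENSMUSG00000090877), which encodes nearly the same protein, had 3.999, 4.82, 3.62, 3.43 and 4.14 CPM in KO, against 2.18, 3.39, 3.84, 2.97 and 4.92 CPM in CTR, and here the groups overlapped (log2 fold change 0.21, 95% interval -0.24 to 0.67, and 0.35 without CTR 4 and CTR 5). The 2 genes are hard to separate by reads: 47.1% of the stretches of 100 bases in the longest Hspa1a transcript also occur in Hspa1b, in GENCODE M21. With their counts summed before the fit the log2 fold change was 0.51 (adjusted p = 0.130). Part of Hspa1a (19% of its exon bases) also overlaps Gm20481 on the opposite strand, and the strand setting of the counting is not given in the sources used here. Early stress genes, which rise when cells are handled, were above 0 in 15 of 17 tested, with a median log2 fold change of 0.24, against 49.2% of all genes above 0. Of these, Klf2 (log2 fold change 0.60, SE 0.14, adjusted p = 0.0407) and Zfp36 (log2 fold change 0.46, SE 0.12, adjusted p = 0.0485) rose, against 1.83% of all genes, and 0 fell, and their part in the Hspa1a value was not tested.

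The small heat shock protein gene Hspb1 (ENSMUSG00000004951), whose product holds unfolding proteins without ATP, was near the detection limit. It had 1.22, 0.973, 1.17, 1.13 and 0.632 CPM in KO, against 1.45, 0.409, 1.81, 1.49 and 5.49 CPM in CTR. CTR 5 alone lay far above the rest, and CTR 2 was the lowest. The summed mesothelial and fibroblast markers were likewise highest in CTR 5 (79.5 CPM) and lowest in CTR 2 (15.5 CPM), and their part in the Hspb1 value was not tested. The log2 fold change was -1.05 (SE 0.52, adjusted p = 0.260), and -0.33 without CTR 5. Of its stretches of 100 bases, 42.7% also occur in the pseudogene Hsp25-ps1.

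**Figure D3:**
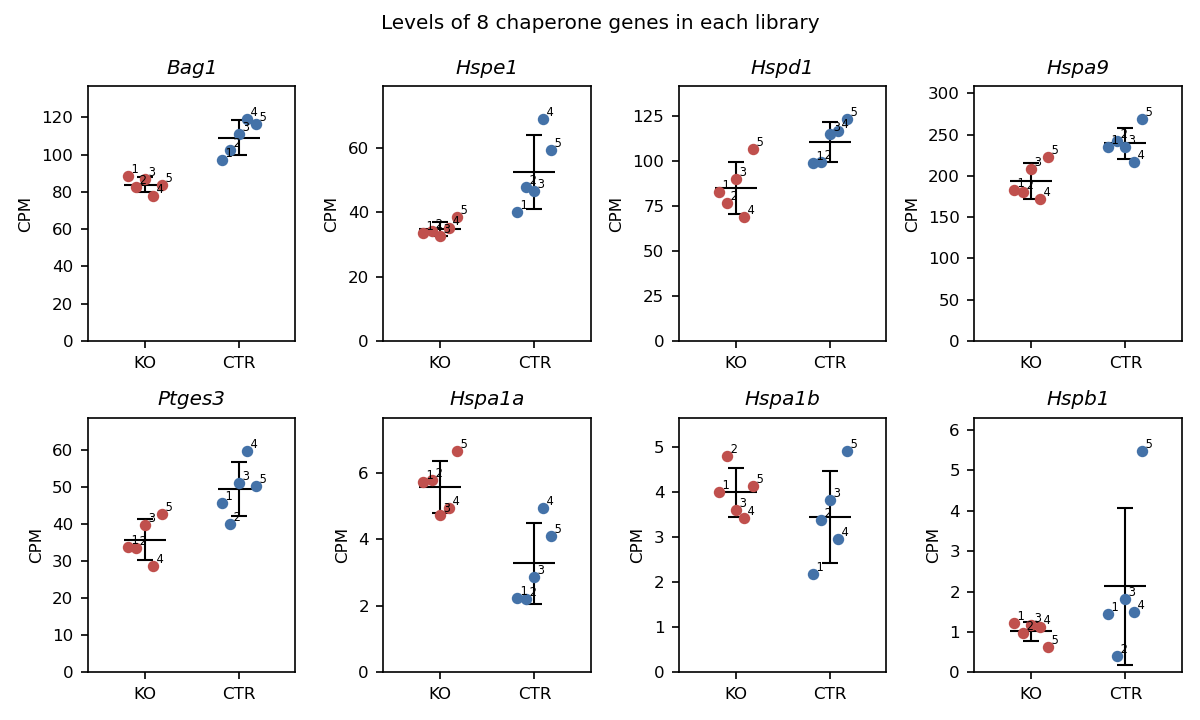
Level in CPM of 8 chaperone genes in each library, numbered by replicate, with KO (red) left of CTR (blue); bars are the mean and SD of 5 libraries. KO and CTR points do not overlap for Bag1 and Hspe1, CTR 4 reaches the KO range for Hspa1a, and CTR 5 lies far above the rest for Hspb1.

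None of the HSP70 and HSP110 genes of unstressed cells passed the test. Hspa8 (ENSMUSG00000015656), the HSC70 of unstressed cells, had 380, 334, 315, 387 and 660 CPM in KO, against 534, 400, 430, 588 and 373 CPM in CTR. KO 5 was the highest of all libraries, and the groups overlapped (log2 fold change -0.16, 95% interval -0.60 to 0.27). Without KO 5 the log2 fold change was -0.39 (adjusted p = 0.135). Of its stretches of 100 bases, 32.1% also occur in other genes. Hspa4, an HSP110 that releases the nucleotide of HSP70, had 161, 151, 178, 149 and 191 CPM in KO, against 190, 199.5, 184, 179 and 191 CPM in CTR. All KO libraries but KO 5 lay below all CTR libraries, and the log2 fold change was -0.19 (adjusted p = 0.235). Hsph1, the heat-inducible HSP110, had -0.19 (95% interval -0.54 to 0.15), with groups that overlapped, and -0.049 without CTR 4 or -0.096 without CTR 4 and CTR 5. Hspa14, an HSP70 that works at the ribosome, had 25.6, 21.9, 25.0, 24.4 and 23.0 CPM in KO, against 22.7, 23.6, 27.0, 32.2 and 29.7 CPM in CTR. CTR 4 was the highest, the groups overlapped, and the log2 fold change was -0.17 (95% interval -0.41 to 0.07). For Hspa14 it was -0.10 without CTR 4 and -0.027 without CTR 4 and CTR 5. None of the 6 genes of this class passed the test in either direction, at a class median of -0.17. Without CTR 4 and CTR 5 the class median lay between the values of Hsph1 (-0.096) and Hspa14 (-0.027). At an unadjusted p under 0.05, 1 of the 6, Hspa1a, was higher, and by DESeq2 and by voom Hspa1a alone of the 6 was called.

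J-domain proteins carry clients to HSP70 and start its ATP cycle, and 0 of the 6 cytosolic ones passed the test. Dnaja1 (ENSMUSG00000028410), a farnesylated partner of HSC70, came nearest, with 31.4, 30.5, 29.6, 27.5 and 37.6 CPM in KO and 36.4, 41.1, 31.5, 38.7 and 51.5 CPM in CTR. Among the KO libraries KO 5 alone reached the CTR range, and the log2 fold change was -0.35 (SE 0.13, adjusted p = 0.150), and -0.21 without CTR 4 and CTR 5. Other genes share 24.0% of its stretches of 100 bases. Dnajb1, the HSP40 induced by heat, was at 31.8 ± 1.48 CPM in KO and 31.7 ± 2.99 CPM in CTR (SD, n = 5 each), with a log2 fold change of 0.0085, a 95% interval from -0.18 to 0.20 and a value of 0.11 without CTR 4 and CTR 5. Dnaja2, another type I partner of HSC70, had 104, 101, 104, 91.7 and 106 CPM in KO, against 104, 102, 106, 127 and 120 CPM in CTR. CTR 4 and CTR 5 were the highest, and the log2 fold change was -0.14 (95% interval -0.33 to 0.05), and -0.033 without these 2 libraries. Dnajb6, which holds back aggregates of polyglutamine proteins, had 63.7, 64.0, 75.1, 69.1 and 63.7 CPM in KO, against 62.8, 65.0, 59.6, 66.4 and 54.2 CPM in CTR. The groups overlapped, and the log2 fold change was 0.12 (95% interval -0.06 to 0.31), with 36.3% of its stretches of 100 bases shared with other genes. Dnajb2 and Dnajb4 had log2 fold changes of 0.17 and 0.12, and of 0.34 and 0.22 without CTR 4 and CTR 5. Dnaja1 was the only 1 of the 6 with an unadjusted p under 0.05, and by DESeq2 and by voom 0 of the 6 were called.

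Of the BAG genes, whose products free HSP70 from ADP, Bag1 fell in KO. Bag1 (ENSMUSG00000028416), which also binds BCL2 and the proteasome, had 88.6, 82.4, 86.6, 77.8 and 83.7 CPM in KO, against 96.9, 103, 111, 119 and 116 CPM in CTR. All 5 KO libraries lay below all 5 CTR libraries. The log2 fold change was -0.38 (SE 0.08, adjusted p = 0.0297), which is 23.1% lower in KO. It was -0.30 without CTR 4 and CTR 5 (adjusted p = 0.0321), and with the length and GC correction -0.37 (adjusted p = 0.0173). The call was lost without CTR 3 or any 1 of KO 1 to KO 4 (adjusted p between 0.0529 and 0.0906), where the log2 fold change stayed between -0.40 and -0.35. Over all genes 62 to 320 passed in these 5 fits, against 520 with all libraries. The longest Bag1 transcript shared 0 of its stretches of 100 bases with another gene. Bag3, a stress-induced partner of small heat shock proteins in selective autophagy, had 65.8, 78.3, 86.3, 69.8 and 75.9 CPM in KO, against 81.2, 83.3, 69.9, 80.6 and 59.4 CPM in CTR. The groups overlapped throughout (log2 fold change 0.0064, 95% interval -0.24 to 0.25). Bag2 was near the detection limit, with 1.04, 0.973, 1.28, 1.13 and 0.919 CPM in KO, against 0.950, 0.759, 1.86, 1.62 and 1.68 CPM in CTR. CTR 3, CTR 4 and CTR 5 lay above all KO libraries and the other CTR libraries near them (log2 fold change -0.36, adjusted p = 0.487), and the value was -0.16 without CTR 4 and CTR 5. For Bag3 it was -0.052 without them.

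**Figure D4:**
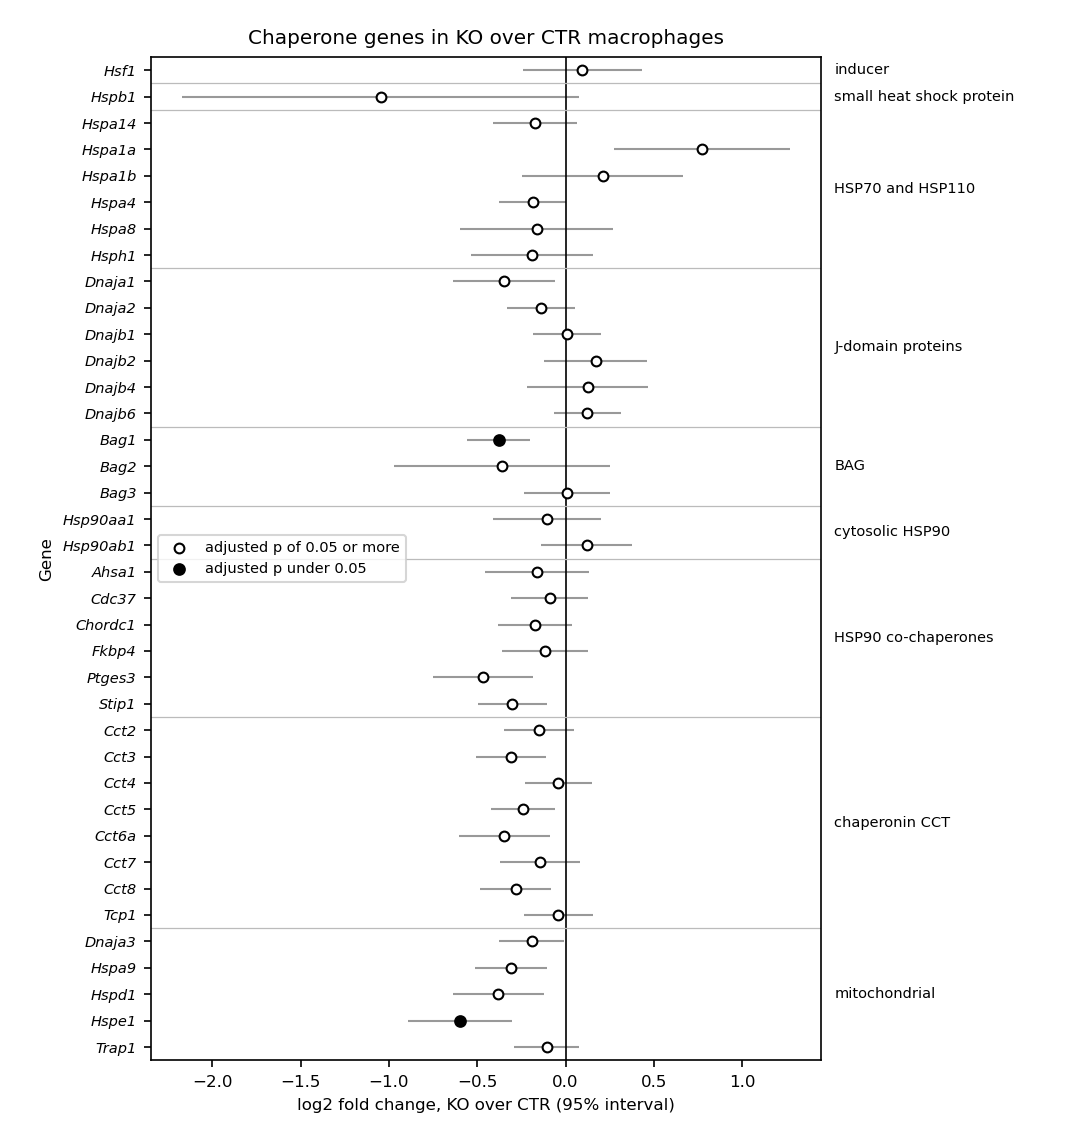
Log2 fold change of each chaperone gene, KO over CTR, with its 95% interval, by class; filled points passed an adjusted p under 0.05 and open points did not. Only Bag1 at -0.38 and Hspe1 at -0.60 are filled, and all CCT, HSP90 co-chaperone and mitochondrial genes lie below 0 with all 10 libraries.

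The 2 cytosolic HSP90 genes did not pass the test and had values of opposite sign. Hsp90ab1 (ENSMUSG00000023944), the constitutive form, had 811, 780, 744, 863 and 850 CPM in KO, against 697, 624, 697, 996 and 715 CPM in CTR. All KO libraries lay above 4 of the CTR libraries and below CTR 4. Its log2 fold change was 0.12 (SE 0.12, adjusted p = 0.590), 0.24 without CTR 4 (adjusted p = 0.0741) and 0.27 without CTR 4 and CTR 5 (adjusted p = 0.0519). Hsp90aa1 (ENSMUSG00000021270), the inducible form, had 112, 98.5, 123, 121 and 140 CPM in KO, against 94.0, 116, 143, 162 and 126 CPM in CTR, with groups that overlapped and a log2 fold change of -0.11 (95% interval -0.41 to 0.20). It was 0.02 without CTR 4 and CTR 5. For Hsp90aa1, 47.5% of the stretches of 100 bases also occur in other genes, most of them in Gm12346.

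HSP90 works through co-chaperones, and all 6 of these genes were lower in KO in value, with 0 passing the test. Ptges3 (ENSMUSG00000071072), which encodes p23 of the closed HSP90 clamp, had 33.8, 33.5, 39.8, 28.8 and 42.7 CPM in KO, against 45.8, 39.9, 51.0, 59.7 and 50.3 CPM in CTR. Only KO 5 overlapped with CTR 2. The log2 fold change was -0.47 (SE 0.13, adjusted p = 0.0661), and it passed without KO 5 or without CTR 2 (adjusted p = 0.0484 and 0.0479). KO 5 was the highest KO library and CTR 2 the lowest CTR library for this gene, so leaving out either had to lower the value. These passes are therefore no independent support for a fall. Ptges3 did not pass without CTR 4 and CTR 5 (log2 fold change -0.35, adjusted p = 0.117) or with the length and GC correction (log2 fold change -0.35, adjusted p = 0.113). Its pseudogene Ptges3-ps, at 20.3 CPM in KO and 24.3 CPM in CTR, held 49.3% of the level of Ptges3 in CTR, and reads of the 2 may be assigned to either. Stip1 (ENSMUSG00000024966), which links HSP70 to HSP90, had 64.0, 54.3, 64.5, 53.7 and 69.2 CPM in KO, against 75.3, 72.1, 75.6, 73.9 and 79.8 CPM in CTR. The groups did not overlap, and the log2 fold change was -0.30 (SE 0.09, adjusted p = 0.0808). Chordc1, whose product binds HSP90 and whose start is spanned by heat shock element letters, had 23.0, 29.3, 28.2, 24.9 and 22.5 CPM in KO, against 29.3, 27.2, 30.7, 28.6 and 28.2 CPM in CTR. KO 2 and KO 3 lay within the CTR range and the other KO libraries below it (log2 fold change -0.17, 95% interval -0.38 to 0.04). Of the remaining log2 fold changes, Ahsa1, which speeds the ATPase of HSP90, had -0.16, Fkbp4 of steroid receptor complexes -0.12 and Cdc37 of kinase complexes -0.09, and these 3 were at 0.07, 0.03 and 0.07 without CTR 4 and CTR 5. Ptges3 and Stip1 were the 2 of 6 with an unadjusted p under 0.05, and DESeq2 (adjusted p = 0.0186 and 0.0244) and voom (adjusted p = 0.0228 and 0.0217) called both.

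The 8 subunits of the chaperonin CCT, which assembles from one copy of each per ring, all had negative log2 fold changes, between -0.35 and -0.04, and 0 passed the test. Summed over the subunits, KO libraries stood at 787, 785, 811, 796 and 860 CPM, against 842, 856, 862, 1037 and 1007 CPM in CTR libraries. Only KO 5 overlapped with CTR 1 and CTR 2, and CTR 4 and CTR 5 stood well above the rest. Cct3 (ENSMUSG00000001416) had 75.3, 71.7, 82.2, 72.9 and 87.99 CPM in KO, against 89.6, 90.7, 94.0, 97.9 and 111 CPM in CTR. The groups did not overlap, and the log2 fold change was -0.31 (SE 0.09, adjusted p = 0.0786). Cct5 (ENSMUSG00000022234) also separated, with 118 to 128 CPM in KO and 130 to 164 CPM in CTR (log2 fold change -0.24, adjusted p = 0.120, and -0.13 without CTR 4 and CTR 5).

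Cct8 had 91.9, 99.6, 102, 93.6 and 108 CPM in KO, against 107, 114, 112, 131 and 138 CPM in CTR. KO 5 alone reached the CTR range, above CTR 1, and the log2 fold change was -0.28 (adjusted p = 0.102). Cct6a had 75.98, 69.8, 86.0, 64.6 and 94.1 CPM in KO, against 93.0, 84.8, 96.0, 111 and 111 CPM in CTR. KO 3 and KO 5 reached the CTR range (log2 fold change -0.35, adjusted p = 0.118). Without CTR 4 and CTR 5 the log2 fold change was -0.16 for Cct8 and -0.22 for Cct6a. The log2 fold changes of Cct2 and Cct7 were both -0.15, and Cct4 and Tcp1 were each at -0.04, with 95% intervals from -0.23 to 0.15. The difference between subunits was not tested. Cct6a overlaps Psph over 12.5% of its exon bases and Tcp1 overlaps Acat3 over 11.4%, both on the opposite strand. Per length, as the authors' FPKM, the subunits were between 8.40 for Cct3 and 30.4 for Cct5 in KO, against 10.2 and 34.9 in CTR for the same 2 genes. The length behind the FPKM was 9402 bases for Cct3, whose longest GENCODE transcript has 3335. No order of the subunits is therefore read from these values. The median log2 fold change of the 8 was -0.08 without CTR 4 and CTR 5, against -0.19 with all libraries, with Cct2 at -0.036, Cct7 at 0.015, Cct4 at 0.055 and Tcp1 at 0.052. Cct3, Cct5, Cct6a and Cct8 were the 4 of 8 with an unadjusted p under 0.05, and DESeq2 called Cct3 and Cct8 while voom called Cct3.

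The 5 mitochondrial chaperone genes all had negative log2 fold changes. Without CTR 4 and CTR 5 all 5 values were less negative, Hspe1 by the most (-0.37, against -0.60 with all libraries). Hspa9 moved least (-0.29, against -0.31) and was the median gene in both fits, so the class median hides the larger moves. The gene that passed the test was Hspe1 (ENSMUSG00000073676), the HSP10 lid of the mitochondrial chaperonin. Hspe1 had 33.4, 34.2, 32.7, 35.0 and 38.5 CPM in KO, against 40.1, 47.9, 46.6, 68.9 and 59.3 CPM in CTR. All 5 KO libraries lay below all 5 CTR libraries, and CTR 4 and CTR 5 were the highest. The log2 fold change was -0.60 (SE 0.14, adjusted p = 0.0340), which is 33.9% lower in KO. It was -0.37 without CTR 4 and CTR 5 (adjusted p = 0.0267), a value smaller by over 1.5 times, and with the length and GC correction -0.49 (adjusted p = 0.0380). The call was lost without CTR 3, CTR 5 or any 1 of KO 1 to KO 4 (log2 fold change between -0.64 and -0.55, adjusted p between 0.0616 and 0.0975), and with no filter on low counts (log2 fold change -0.60, adjusted p = 0.0575).

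Hspd1 (ENSMUSG00000025980), the HSP60 barrel and the neighbour that faces Hspe1 across the stretch shown above, had 82.9, 76.9, 89.9, 69.0 and 107 CPM in KO, against 98.8, 99.5, 115, 117 and 123 CPM in CTR. Only KO 5 reached into the CTR range. The log2 fold change was -0.38 (SE 0.12, adjusted p = 0.0914), which did not pass, and it was -0.47 without KO 5 (adjusted p = 0.0385). KO 5 had the highest Hspd1 level in KO, so leaving it out had to lower this value. That fit is therefore no independent support for a fall. The log2 fold change was -0.30 without CTR 4 and CTR 5 (adjusted p = 0.169) and -0.30 with the length and GC correction (adjusted p = 0.146). Exons of Hspd1 and Hspe1 overlap by 112 bases on opposite strands, 7.6% of the exon bases of Hspe1. The pseudogene Hspd1-ps3 stood at 23.3 CPM in KO and 25.7 CPM in CTR, 23.2% of the level of Hspd1 in CTR, while the 6 named pseudogenes of Hspe1 held at most 1 count in any library. Per length, Hspd1 was at 31.0 ± 5.24 FPKM in KO and 39.3 ± 4.18 FPKM in CTR, and Hspe1 at 20.2 ± 1.29 FPKM in KO and 29.7 ± 5.59 FPKM in CTR (SD, n = 5 each). The length behind the FPKM was 2777 bases for Hspd1 and 1738 for Hspe1, whose longest GENCODE transcripts have 2423 and 964. No order of Hspd1 and Hspe1 is therefore read from these values.

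Hspa9 (ENSMUSG00000024359), the mitochondrial HSP70 that pulls imported proteins through the inner membrane, had 183, 180, 209, 172 and 223 CPM in KO, against 235, 242, 235, 217 and 269 CPM in CTR. KO 5 alone reached the CTR range, above CTR 4, and the log2 fold change was -0.31 (SE 0.09, adjusted p = 0.0854). Without CTR 4 it was -0.34 (adjusted p = 0.0445), without CTR 4 and CTR 5 -0.29 (adjusted p = 0.0618) and with the length and GC correction -0.24 (adjusted p = 0.132). CTR 4 had the lowest Hspa9 level in CTR, so leaving out CTR 4 alone had to lower the value. The pass without CTR 4 is therefore no independent support for a fall. Dnaja3, the J-domain partner of Hspa9, had -0.19 (95% interval -0.38 to -0.01, adjusted p = 0.214), and Trap1, the mitochondrial HSP90, had -0.11 (95% interval -0.29 to 0.08), and -0.064 without CTR 4 and CTR 5. Summed over the 5 genes, KO libraries stood between 362 and 463 CPM and CTR libraries between 464 and 556 CPM. At an unadjusted p under 0.05, 4 of the 5 were lower, all but Trap1. DESeq2 and voom each called Hspa9, Hspd1 and Hspe1. Mitochondrially encoded transcripts, another mitochondrial readout, held between 1.204 and 1.36% of the counts in KO and between 1.39 and 1.97% in CTR, and their part in these values was not tested.

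**Figure D5:**
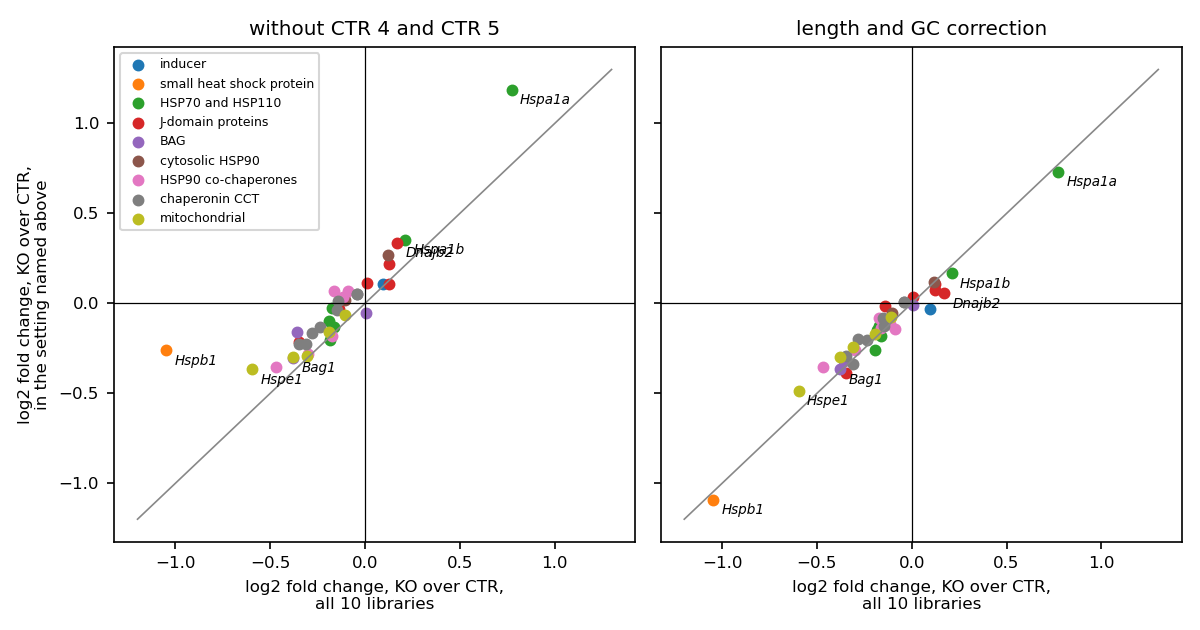
Log2 fold change of each chaperone gene, KO over CTR, with all 10 libraries (x axis) against the same without CTR 4 and CTR 5 (left panel) or with a correction for gene length and GC content (right panel), coloured by class; the grey line marks equal values. Without CTR 4 and CTR 5, picked for their high chaperone levels, most points move up, Hspa1a to 1.19 and Hspb1 to -0.26. The correction moves most points little.

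Levels per length spread widely over the chaperones. In the authors' FPKM, Hsp90ab1 was the most abundant, at 142 ± 8.14 in KO and 126 ± 17.9 in CTR (SD, n = 5 each). Hspa8 was at 45.5 ± 15.3 in KO and 49.4 ± 7.72 in CTR, and Hspa9 at 39.1 ± 4.43 in KO and 47.3 ± 5.61 in CTR. At the low end stood Bag2, at 0.272 ± 0.0366 in KO and 0.340 ± 0.121 in CTR, and Hspb1, at 0.565 ± 0.131 in KO and 1.16 ± 1.10 in CTR. The inducible genes Hspa1a and Hspa1b were at 1.90 and 1.44 in KO and at 1.08 and 1.22 in CTR. The length behind the FPKM can exceed that of any transcript, which lowers the FPKM of such genes. It was 9237 bases for Hspa8 and 5008 for Hspa9, whose longest GENCODE transcripts have 3158 and 3049. No order of Hspa8 and Hspa9, of Hspd1 and Hspe1 or of the CCT subunits is read from the FPKM.

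Among other genes of the chaperone network, 2 fell. Of 86 further genes (other HSP70, J-domain, BAG and HSP90 partners, prefoldin, tubulin cofactors and mitochondrial proteases), 83 were tested, and 0 rose and 2 fell (2.41%, against 2.11% of all genes). The 2 were Dnajc2 and St13. Dnajc2, a J-domain protein of the ribosome, had 21.6, 18.7, 24.3, 21.0 and 27.0 CPM in KO, against 30.1, 32.8, 30.0, 31.8 and 30.2 CPM in CTR, with no overlap between the groups (log2 fold change -0.46, SE 0.10, adjusted p = 0.0340). St13, the Hip co-chaperone that steadies HSP70 on its client, had 135, 126, 130, 128 and 141 CPM in KO, against 154, 158, 162, 160 and 161 CPM in CTR, again with no overlap (log2 fold change -0.27, SE 0.07, adjusted p = 0.0494). With 1 library left out, Dnajc2 passed only without KO 5, CTR 4 or CTR 5, and St13 only without KO 5 or CTR 4. With all libraries, St13 lost its call with DESeq2 size factors, with library size only and with no filter on low counts. It also lost it in a robust quasi-likelihood fit, with the length and GC correction and with the replicate number as a block. Dnajc2 lost its call with no filter and with that block. The median log2 fold change of the 83 was -0.09, with 52 below 0 (62.7%, against 50.8% of all genes). At an unadjusted p under 0.05, 19 were lower (22.9%, against 11.9% of all genes) and 2 higher (against 10.0% of all genes). By DESeq2 0 of the 83 were higher and 6 lower (4.53% and 5.23% of all genes), and by voom 5 were higher and 8 lower (7.77% and 6.76% of all genes). Leaving out CTR 4 and CTR 5 gave 5 higher and 4 lower (5.13% and 3.63% of all genes).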

How the data were processed

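Per the labels, total RNA of cultured peritoneal macrophages was made into Illumina libraries. For each Ensembl gene the authors deposited raw counts, and FPKM beside them. Per the submitters' processing notes, CASAVA 1.8, HISAT2, SAMtools 1.3.1, edgeR and GRCm39 were used; the read counter, strand setting and annotation were not found in the labels or headers. Columns were matched to samples by library number, and symbols by identifier (191 unmatched). FPKM served for levels between genes and, with the counts, for gene length.

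Counts were tested in R 4.3.3 with edgeR 4.0.16 (filterByExpr, TMM scaling, quasi-likelihood test, two-sided, genotype as the only term, Benjamini-Hochberg adjustment over 13203 genes, threshold 0.05). CPM printed are on TMM-scaled library sizes. SE was derived from the log2 fold change and its F statistic, and 95% intervals use the fit's degrees of freedom. A count of 0 allows up to 3 counts, between 0.156 and 0.192 CPM, for counting error only. All 38 members were described; in full, those passing the test, the 3 with the lowest p of each class and 8 genes fixed by name. Members and lists were chosen with earlier results of these data known. No library pair of a genotype matched within sampling noise (chi-square per degree of freedom at least 15.8). Library numbers of the genotypes do not interleave, so an order of preparation, if they mark it, and genotype cannot be told apart. Alternatives used DESeq2 1.42.0, limma 3.58.1 and mgcv 1.9.3. The last fitted a trend on the length behind the FPKM and on the GC content of the longest GENCODE M21 transcript (GRCm38). Transcript and promoter sequences are from GRCm38 and give no positions for GRCm39.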

Additional observations from a re-analysis of the deposited data

Results flagged for a closer look

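In 6 of 76 groups of 5 libraries (38 genes in each genotype) the highest library lay far from the others. The gap was over 0.71 of the group's range. For independent, normally distributed values chance alone flags about 1 in 20 groups. The groups share the same 10 libraries and are not independent, so the 6 are not weighed against that share. In KO 5, Hspa8 stood at 660 CPM, against 315 to 387 CPM in the other KO libraries, and Cct2 at 135 CPM, against 115 to 121 CPM. In CTR 4, Hsph1 stood at 42.6 CPM (24.9 to 29.5 CPM in the other CTR libraries), Hsp90ab1 at 996 CPM (624 to 715 CPM) and Tcp1 at 142 CPM (106 to 114 CPM). In CTR 5, Hspb1 stood at 5.49 CPM, against 0.409 to 1.81 CPM in the other CTR libraries.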

How the results depend on the processing

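Of the 38 genes, 28 kept the sign of their log2 fold change in all 21 other settings, and 9 passed the test in at least 1 of them. The main counts were 0 members higher and 2 lower, and 0 other network genes higher and 2 lower. Leaving out each of the 10 libraries in turn gave 0 to 1 members higher and 0 to 4 lower, and 0 to 1 network genes higher and 0 to 3 lower. The members lower were 0 without CTR 3 or any 1 of KO 1 to KO 4, 4 without KO 5 and 1 without CTR 5, and 1 member was higher without CTR 4. KO 5 was the KO library with the highest median chaperone gene, so leaving it out lowers KO over CTR. Over all genes, calls numbered 131, 62, 320 and 127 without KO 1, KO 2, KO 3 and KO 4 and 121 without CTR 3, against 520 with all libraries. The DESeq2 Wald test gave 1 member higher and 8 lower with 6 network genes lower, and voom gave 1 and 7 with 5 network genes higher and 8 lower. Without CTR 4 and CTR 5, 1 member was higher, and 5 network genes were higher and 4 lower. No filter gave 1 member and 0 network genes lower, DESeq2 size factors 1 network gene lower, and the length and GC correction 1 network gene higher and 5 lower. With the replicate number as a block (replicate block), 0 members and 0 network genes were lower; Bag1 had a log2 fold change of -0.38 (adjusted p = 0.104) and Hspe1 of -0.57 (adjusted p = 0.0649), and 104 of all genes were called. Libraries with the same number had residual correlations, over genes, of -0.124 to 0.0516, so equal numbers are not taken as pairs. Signs turned for 10 genes that no setting called, with log2 fold changes between -0.16 and 0.10 with all libraries. Without CTR 4 and CTR 5 they were Hsp90aa1 (0.018), Bag3 (-0.052), Ahsa1 (0.066), Cdc37 (0.071), Fkbp4 (0.033), Cct4 (0.055), Cct7 (0.015) and Tcp1 (0.052). With the length and GC correction they were Hsf1 (-0.032), Bag3 (-0.0094), Cct4 (0.0073) and Tcp1 (0.0084), with voom Bag3 (-0.022), Cdc37 (0.042), Cct4 (0.036) and Tcp1 (0.021), and with library size only Tcp1 (0.0030). Leaving out 1 library, Dnajb1 ranged from -0.023 to 0.052, Bag3 from -0.064 to 0.051, Cct4 from -0.077 to 0.012 and Tcp1 from -0.073 to 0.037. The cause was not tested. Bag2 and Hspb1 are limited by depth, with lowest counts of 13 and 7 per library.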
